A study of Homo sapiens with 4 samples.

Results

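The enzymes of serine synthesis and folate one-carbon metabolism were examined in 786-O cells, a human clear cell renal carcinoma line without functional VHL that the array labels name CRL-1932, with and without MCP-1, the chemokine encoded by CCL2. The group was listed by gene symbol, with earlier results of these data known, and holds 10 genes: PHGDH, PSAT1 and PSPH of serine synthesis, SHMT2, MTHFD2, MTHFD1L and ALDH1L2 of the mitochondrial folate pathway, and SHMT1, MTHFD1 and ALDH1L1 of the cytosolic one. A named probe set, the set of short probes that measures a gene, was found for 9 of these 10 genes, of 17687 named genes and 21448 tested probe sets in all, with 1 probe set per gene, and SHMT1 was not analysed here. Total RNA of 2 untreated and 2 MCP-1-treated dishes was hybridized to Clariom S arrays, 1 array per dish. Treated dishes received MCP-1 at 5 ng/mL for 16 h by their labels, whereas the text of the paper names a longer exposure for the arrays. Untreated cells came from the same passage and grew in the same medium, RPMI1640 with serum, which supplies serine, glycine and folic acid. All arrays hold RNA of this 1 line, so p-values concern dishes of it and no other line. In limma, the main test used below, the spread behind p-values and intervals is pooled mostly over all probe sets. A gene's own dishes enter it only in part. Values are log2 signals as deposited, and a difference of 1 between groups on this scale is a 2-fold difference. In RNA of whole dishes, fewer cells with a transcript and less of it per cell cannot be told apart.

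Cells make serine from the glycolytic intermediate 3-phosphoglycerate, which PHGDH oxidizes, PSAT1 aminates with nitrogen from glutamate, and PSPH dephosphorylates. The serine hydroxymethyltransferases SHMT1 in the cytosol and SHMT2 in mitochondria then split serine into glycine and a carbon unit held on tetrahydrofolate. In mitochondria MTHFD2 oxidizes this unit and MTHFD1L releases it as formate, and in the cytosol MTHFD1 loads the formate back onto folate for the synthesis of purines and thymidylate. ALDH1L1 in the cytosol and ALDH1L2 in mitochondria burn the folate-bound unit to CO2 and so make NADPH. The transcription factor ATF4, which rises when amino acids run short or the endoplasmic reticulum is stressed, is known to switch on the serine synthesis genes and the mitochondrial folate enzymes.

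Normalized array medians ran from 6.20 to 6.28. MCP-1-treated replicate 2 stood slightly apart, with correlations across probe sets between 0.9929 and 0.9933 against the other arrays, which reached 0.9951 among themselves. A background level was set at 6.11, the 90th percentile of the mean signals of 612 negative control probe sets. Of 12 measured markers of renal epithelium and of this line, 11 lay above that level, among them PAX8 and KRT8, and CDH16 did not. Of the marker lists of other cell types, 2 of 10 genes of monocytes and macrophages (CD68 and TYROBP), 1 of 7 genes of fibroblasts (COL1A2) and 0 of 6 genes of endothelium lay above it.

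PSAT1 and MTHFD2 had the lowest levels in MCP-1-treated relative to untreated cells among the measured enzymes, 2.36-fold and 1.96-fold lower. MTHFD1L, SHMT2 and PSPH were lower by smaller amounts, 1.33-fold, 1.23-fold and 1.22-fold. For these 5 genes both treated arrays lay below both untreated arrays. MTHFD1, the cytosolic enzyme measured well above background, had overlapping groups. None of these differences passed an adjusted p of 0.05 in limma, fitted over all tested probe sets with replicate pairs as a term.

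**Figure D1:**
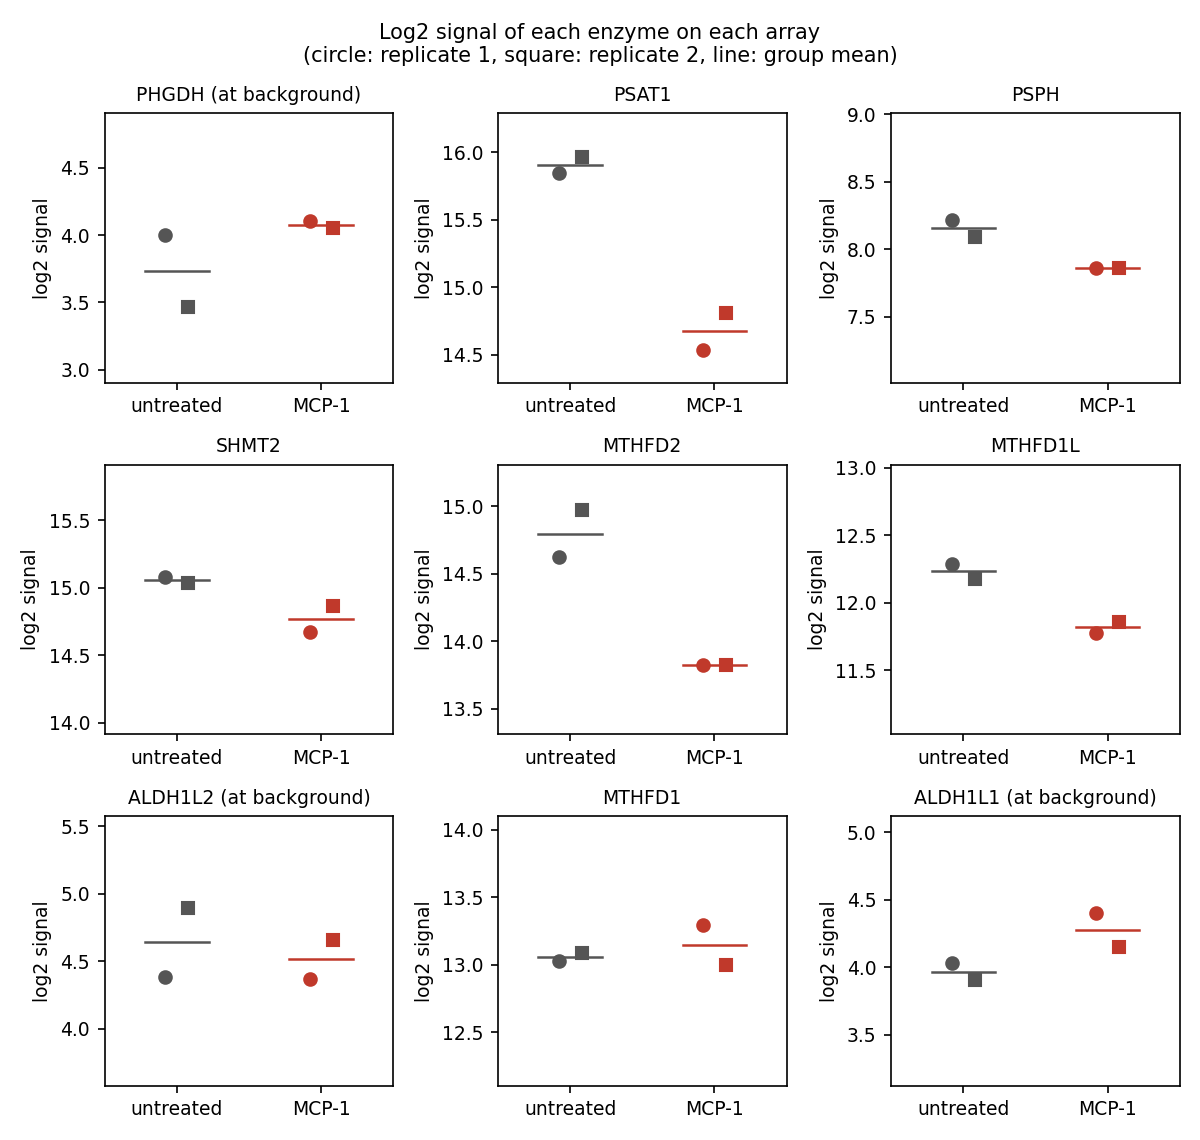
Log2 signal of 9 enzymes on each of the 4 arrays, with untreated cells in grey, MCP-1-treated cells in red, circles for replicate 1, squares for replicate 2 and lines for group means. Each panel spans the same range of log2 units around its own mean. Both red points lie below both grey points for PSAT1, PSPH, SHMT2, MTHFD2 and MTHFD1L, while 3 panels are marked as at background.

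Of the 9 measured enzymes, 6 had mean signals above background. PHGDH, ALDH1L2 and ALDH1L1 did not: 55.7%, 71.9% and 62.3% of the negative controls had a lower mean than these genes. Treated signals were below untreated ones with no overlap for 5 of the 9 enzymes, where 15.2% of all tested probe sets did the same, and for 5 of the 6 above background, where the share was 16.5%. They were above untreated ones with no overlap for 2, both at background (PHGDH and ALDH1L1), where the share over all probe sets was 16.3%. The median log2 fold change was -0.29 over the 9 enzymes and -0.35 over the 6 above background, against 0.01 over all probe sets tested.

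limma called 0 of the 9 enzymes at an adjusted p of 0.05, and 0.0233% of all probe sets were called lower. At an unadjusted p under 0.05, PSAT1 and MTHFD2 were lower, 2 of 9, where 2.36% of all probe sets were. With a fold of at least 2 in addition, the threshold of the study's methods, PSAT1 passed, 1 of 9, where 0.224% of all probe sets did so in this direction. With a fold of at least 1.5, as in the series text, both genes passed, where 2.04% did. The methods' t-test, paired and at the same thresholds, passed PSAT1 alone of the enzymes, where 0.0653% of probe sets were lower by that rule, and after Benjamini-Hochberg adjustment it passed none of them. That test takes its spread from 1 gene and a pair of differences at a time. Each count describes enzymes chosen with earlier results known. Each also rests on 2 arrays per group, for which an exact two-sided permutation test cannot give a p below 0.333.

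**Figure D2:**
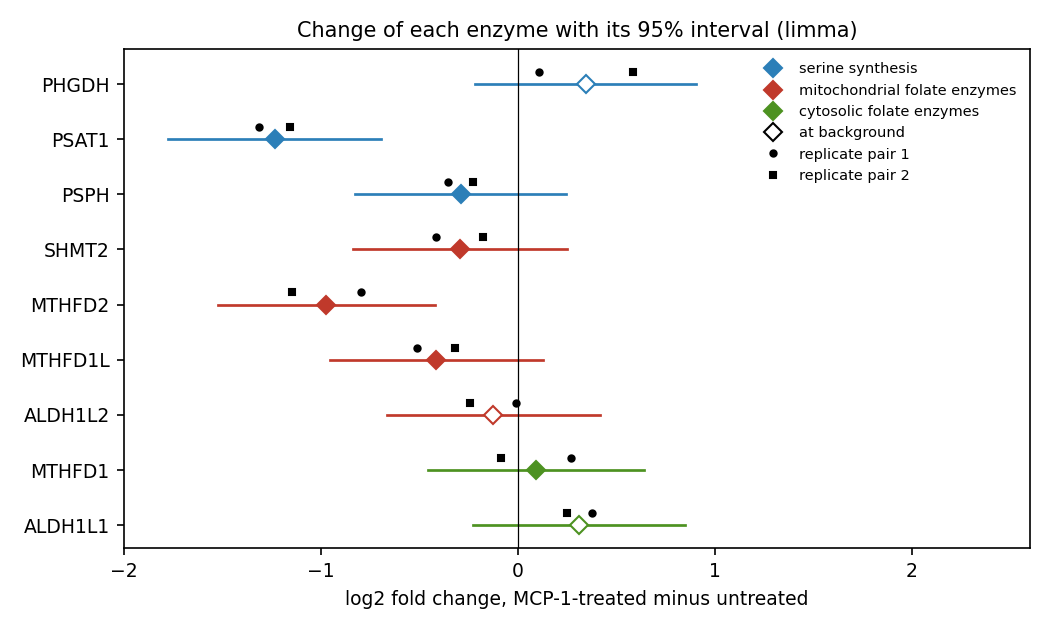
Log2 fold change of 9 enzymes, MCP-1-treated minus untreated, as diamonds with 95% intervals from limma, and the difference in each replicate pair as small black points above. Blue marks serine synthesis, red mitochondrial and green cytosolic folate enzymes, and open diamonds genes at background. The intervals of PSAT1 (-1.78 to -0.70) and MTHFD2 (-1.52 to -0.42) lie below 0, and those of the other 7 span it.

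PSAT1, phosphoserine aminotransferase, had log2 signals of 15.85 and 15.97 without and 14.54 and 14.81 with MCP-1. The highest treated signal lay 1.04 below the lowest untreated one, whereas replicates lay 0.12 apart in untreated and 0.27 apart in treated cells. The log2 fold change was -1.24 with a standard error of 0.24 (adjusted p = 0.311 from limma), at rank 22 from the lowest of all 21448. It was -1.31 and -1.16 in the replicate pairs, and from -1.37 to -1.10 with each array left out in turn. PSAT1 has 4 annotated pseudogenes, whose transcripts a probe set may also bind.

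PSPH, phosphoserine phosphatase, had signals of 8.21 and 8.09 in untreated and 7.86 and 7.86 in treated cells. The groups did not overlap, but its log2 fold change of -0.29 had a 95% interval from -0.83 to 0.25 in limma. PHGDH, the first enzyme of the route, gave 4.00 and 3.46 in untreated and 4.10 and 4.05 in treated cells. These signals lie in the middle of the negative controls, and the log2 difference of 0.35 was smaller than the 0.53 between the untreated replicates. Of the serine synthesis enzymes, PHGDH thus had no signal that could be told from background, while PSAT1 and PSPH were measured above it.

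MTHFD2, the mitochondrial methylenetetrahydrofolate dehydrogenase, had signals of 14.62 and 14.97 without MCP-1 and of 13.82 on both treated arrays. The treated arrays differed by 0.0034 and the untreated arrays by 0.35, and the groups were 0.80 apart at their nearest. The log2 fold change was -0.97 with a standard error of 0.25 (adjusted p = 0.639 from limma), at rank 59 from the lowest. The replicate pairs gave -0.80 and -1.15. Annotated pseudogenes of MTHFD2 number 7, and PSPH and MTHFD1 have 1 each.

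MTHFD1L, which releases formate from the mitochondrial folate carrier, had signals of 12.29 and 12.18 in untreated and 11.77 and 11.86 in treated cells. The groups were 0.32 apart at their nearest, more than the 0.11 between untreated and the 0.09 between treated replicates. Its log2 fold change was -0.42 (95% interval -0.96 to 0.13 in limma), and 5.92% of all probe sets had a value as low. SHMT2 had signals of 15.08 and 15.04 in untreated and 14.67 and 14.86 in treated cells. Its groups were 0.18 apart, less than the 0.19 between the treated replicates, and the log2 fold change of -0.29 had a 95% interval from -0.84 to 0.25. ALDH1L2 gave 4.38 and 4.90 in untreated and 4.37 and 4.66 in treated cells, which overlap and lie at background.

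MTHFD1, the cytosolic enzyme with 3 activities on folate, had signals of 13.03 and 13.09 in untreated and 13.30 and 13.00 in treated cells. The treated arrays lay on either side of the untreated ones. The log2 fold change was 0.09 with a 95% interval from -0.46 to 0.64 in limma, and the replicate pairs gave 0.27 and -0.09. ALDH1L1 gave 4.03 and 3.90 in untreated and 4.40 and 4.15 in treated cells, at background on every array.

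The calls on PSAT1 and MTHFD2 depended on how the spread was estimated and on which probe sets were tested. Leaving out the probe sets below background, limma called PSAT1 (adjusted p = 0.00163) and MTHFD2 (adjusted p = 0.0275), 2 of the 6 enzymes then tested, where 0.396% of such probe sets were called lower. The filter also changed the prior, estimated anew over the probe sets left, to 28.5 degrees of freedom against 1 residual. This is more than in the main fit, so these calls rest further on spread from other probe sets, and not only on fewer tests. With a variance prior that follows signal level and is robust to outlying variances, limma called the same 2 genes (adjusted p = 4.01e-15 and 1.92e-07), where 0.242% of all probe sets were called lower. That prior had infinite degrees of freedom, so a gene's spread was read from its signal level and not from its own replicates, and p-values this small do not come from 2 arrays per group alone. Without the replicate block the adjusted p was 0.730 for PSAT1 and 1.0 for MTHFD2. Over all alternatives it ran from 4.01e-15 to 1 for PSAT1 and from 1.92e-07 to 1 for MTHFD2.

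Promoters are shown for the enzymes on which the comparison turns: PSAT1 and MTHFD2 with the lowest log2 fold changes, MTHFD1L, and its cytosolic counterpart MTHFD1. RefSeq promoter windows of build GRCh38.p14, from 250 bases before to 50 after a start site, matched 7 of the 10 genes with 11 windows. PSPH, SHMT2 and ALDH1L2 had no window and were not searched. The windows are chr9:78296875-78297174 for PSAT1, chr2:74198365-74198664 for MTHFD2, chr6:150866236-150866535 for MTHFD1L and chr14:64388103-64388402 for MTHFD1, all on the plus strand and written 5′ to 3′. Capitals mark the composite element TGATGNAA, which pairs of ATF and C/EBP factors such as ATF4 are known to bind, and the E-box CACGTG, which MYC and its relatives bind.
PSAT1: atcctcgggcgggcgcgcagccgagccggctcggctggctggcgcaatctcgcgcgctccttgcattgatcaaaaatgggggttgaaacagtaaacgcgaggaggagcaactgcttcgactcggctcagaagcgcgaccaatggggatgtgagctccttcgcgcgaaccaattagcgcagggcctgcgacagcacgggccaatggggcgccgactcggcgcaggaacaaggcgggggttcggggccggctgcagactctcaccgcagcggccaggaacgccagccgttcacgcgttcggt
MTHFD2: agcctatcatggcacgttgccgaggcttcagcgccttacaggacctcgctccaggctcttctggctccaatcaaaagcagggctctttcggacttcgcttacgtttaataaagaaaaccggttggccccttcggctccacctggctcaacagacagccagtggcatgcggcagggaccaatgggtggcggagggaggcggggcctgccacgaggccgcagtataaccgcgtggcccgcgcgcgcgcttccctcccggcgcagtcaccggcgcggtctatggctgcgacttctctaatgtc
MTHFD1L: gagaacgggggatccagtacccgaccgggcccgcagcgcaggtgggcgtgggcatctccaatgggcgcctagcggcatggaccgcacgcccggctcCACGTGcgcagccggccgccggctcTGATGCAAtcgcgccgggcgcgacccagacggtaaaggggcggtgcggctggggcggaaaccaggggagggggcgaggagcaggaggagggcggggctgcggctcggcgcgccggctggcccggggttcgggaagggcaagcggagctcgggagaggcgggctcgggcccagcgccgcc
MTHFD1: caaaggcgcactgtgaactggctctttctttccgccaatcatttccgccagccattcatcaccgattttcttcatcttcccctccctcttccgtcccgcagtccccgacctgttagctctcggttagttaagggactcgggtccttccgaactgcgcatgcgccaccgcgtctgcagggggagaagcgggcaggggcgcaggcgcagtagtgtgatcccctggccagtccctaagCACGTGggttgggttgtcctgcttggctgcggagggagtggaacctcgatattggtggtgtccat

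The composite element, searched on both strands, was found in 1 of the 7 genes, MTHFD1L. It falls within 3 of its 4 windows, and those 3 overlap one another. It starts 129 bases before the start site in the window shown. By the other start sites of these windows it begins 90 bases before or at base 25 after. Of all 35116 windows, 3.62% hold it, and of the 11 windows of these genes, 3 do. The E-box was found in 2 of the 7 genes, MTHFD1L and MTHFD1. In MTHFD1L it lies 154 bases before the start in the window shown, and 115 bases or 1 base before the other starts. In MTHFD1 it lies 15 bases before the start. Of all windows 7.26% hold the E-box, and of these 11 windows 4 do. The motifs do not overlap in MTHFD1L. In PSAT1 and MTHFD2 neither string of letters was found in this window. A match is a string of letters and no measured site.

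Mitochondrial and cytosolic folate enzymes were compared by their log2 fold changes. The 4 mitochondrial enzymes averaged -0.45 and the 2 measured cytosolic enzymes 0.20, a difference of -0.65. MTHFD1 is the only cytosolic member above background, and MTHFD2, MTHFD1L and SHMT2 are the mitochondrial ones, and with these genes alone the difference was also -0.65. Taking each treated array against each untreated one in turn, it was -0.84, -0.85, -0.46 and -0.46. The lower values come from the combinations with MCP-1-treated replicate 1, in which MTHFD1 was at its highest. Between replicates the same quantity was 0.0056 in untreated cells and 0.39 in treated ones, close in size to the smaller differences between groups.

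Set against MTHFD1, MTHFD2 was at -1.07 in log2 fold change, with values from -1.36 to -0.77 over the 4 combinations. MTHFD1L was at -0.51 (from -0.78 to -0.23) and SHMT2 at -0.39 (from -0.68 to -0.09). SHMT2 thus came close to MTHFD1 in the combination of replicate 2 arrays, while MTHFD2 stayed furthest from it in every one. ALDH1L2 ran from -0.74 to 0.30, with both signs. These differences between genes share arrays and carry no test, and the cytosolic side rests on 1 gene with a usable signal.

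**Figure D3:**
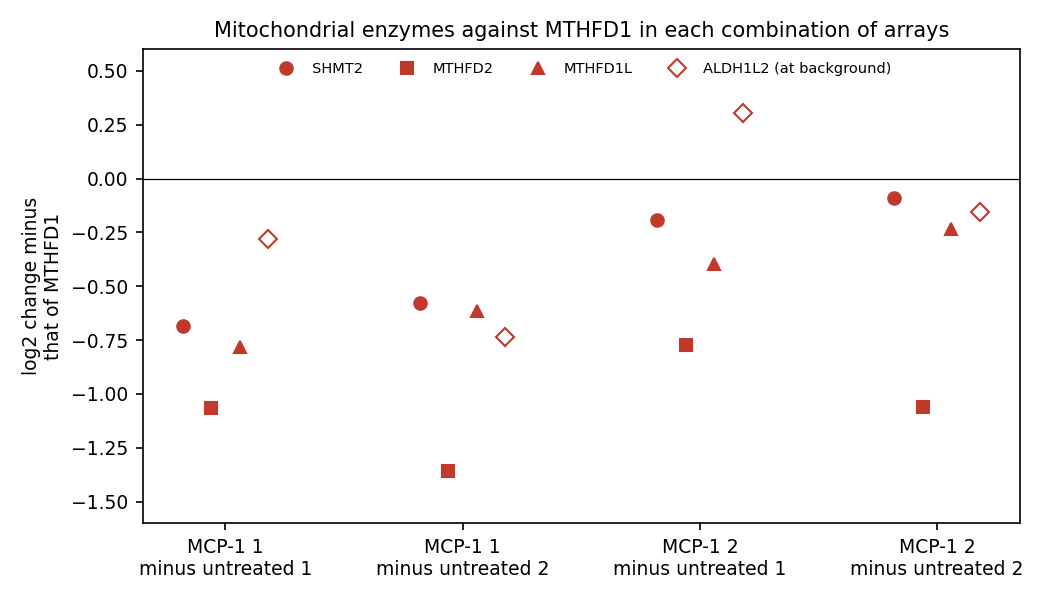
Log2 change of each mitochondrial enzyme minus the log2 change of MTHFD1, with each MCP-1-treated array set against each untreated array in turn. MTHFD2 (squares) lies between -1.36 and -0.77, MTHFD1L (triangles) between -0.78 and -0.23, and SHMT2 (circles) between -0.68 and -0.09, while ALDH1L2 (open, at background) takes both signs.

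Genes around the pathway were grouped in 6 lists, and no gene of them passed limma's adjusted threshold. The lowest values belonged to genes that move or use serine and glycine. Of 13 measured genes of that list, treated means were lower for 6 and higher for 7, the median log2 fold change was 0.03, and 2 were lower at an unadjusted p under 0.05, where 2.36% of all probe sets were. SLC6A9, the glycine transporter GLYT1, had signals of 9.30 and 9.31 in untreated and 8.27 and 7.97 in treated cells, a log2 fold change of -1.19 (adjusted p = 0.414 from limma). CBS, which joins serine with homocysteine, had 11.46 and 11.27 in untreated and 10.59 and 9.84 in treated cells, a log2 fold change of -1.15 (adjusted p = 0.541 from limma). The other probe set of CBS gave -1.16, and CBS has a near-identical copy in the genome, CBSL, whose transcripts cannot be told from it here. With the variance prior that follows signal level, both genes were called (adjusted p = 0.00153 and 2.79e-05 from limma), where 0.242% of all probe sets were called lower. SLC1A4, the serine and alanine exchanger ASCT1, was at -0.51, with both treated arrays below the untreated ones.

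Of 7 genes of thymidylate and purine synthesis, which consume the folate carbon, treated means were lower for 5 and higher for 2 and the median log2 fold change was -0.05. GART, ATIC and PPAT had values of -0.23, -0.15 and 0.15, and TYMS, thymidylate synthase, had signals within 0.0144 of one another on all 4 arrays. Of 6 genes of glycine cleavage and mitochondrial folate handling, 3 were lower and 3 higher, with a median of -0.09. GLDC, the glycine decarboxylase, and MTHFD2L, the paralog of MTHFD2, lay at background with -0.28 and -0.22, and DLD, the lipoamide dehydrogenase, was at -0.19. Of 8 genes of folate uptake, storage and reduction, 4 were lower and 4 higher, with a median of 0.01. FOLR1, a folate receptor, was at -0.33, DHFR2, a dihydrofolate reductase, at 0.24, and FPGS, which adds glutamate tails to folate, at 0.19.

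Of 11 genes of the methionine cycle, 3 were lower and 8 higher, with a median log2 fold change of 0.21, and none reached an unadjusted p of 0.05 in limma. MAT2A, which makes S-adenosylmethionine, had signals of 13.85 and 14.07 in untreated and 14.38 and 14.23 in treated cells, with no overlap and a log2 fold change of 0.35. MTHFS was at 0.36 with overlapping groups, and DMGDH, at background, at -0.51. Among 5 transcription regulators tied to the enzymes, 4 had both treated arrays below both untreated ones, where 16.5% of all probe sets above background did. ATF4 had signals of 14.16 and 14.07 in untreated and 13.81 and 13.56 in treated cells, a log2 fold change of -0.43 (95% interval -0.97 to 0.11 in limma). These are RNA signals, and the protein and activity of ATF4 were not measured here. MYC was at -0.45 and KDM4C, a histone demethylase, at -0.55, and of the 5 regulators KDM4C, 1 of 5, was lower at an unadjusted p under 0.05 (adjusted p = 1 in limma), where 2.36% of all probe sets were.

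**Figure D4:**
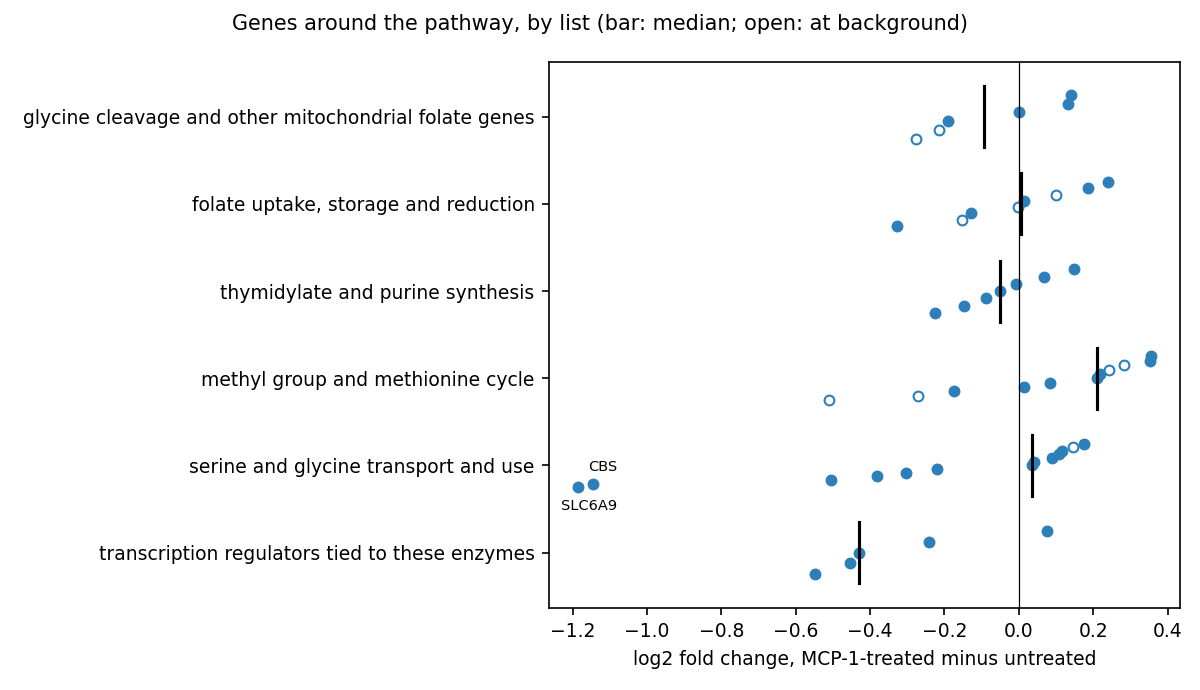
Log2 fold change, MCP-1-treated minus untreated, of the genes in 6 lists around the pathway, 1 point per gene, with a black bar at each list's median and open points for genes at background. SLC6A9 (-1.19) and CBS (-1.15) lie apart from the rest of their list, and the medians of the lists run from -0.43 for the transcription regulators to 0.21 for the methyl group and methionine cycle.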

How the data were processed

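Per the labels and the paper's methods, the authors scanned Clariom S arrays and deposited log2 signals computed in Affymetrix Expression Console 1.4 by Signal Space Transformation and RMA. Their background correction and normalization were kept. RMA works on all arrays jointly and draws dim signals together, so differences of genes near background can be understated. The table has 24351 probe sets, of which 2903 are controls, and 17709 of the other 21448 carry a gene symbol. For a gene with more than 1 probe set, that of highest mean signal was taken.

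MCP-1-treated and untreated arrays were compared over the 21448 probe sets with limma (version 3.58.1, R 4.3.3). The model held a term for the replicate pair, following the paired test of the methods, which left 1 residual degree of freedom and 9.60 from the prior. The spread used for a gene thus came mostly from that prior, estimated over all probe sets. Adjusted p-values are Benjamini-Hochberg values. Alternatives were no block, median centring, quantile normalization, filters at the 25th percentile of signal and at background, a trended robust prior, each array left out and each pair alone. The fit was first run on simulated data with planted changes, where only the estimated fold changes had to be recovered. That run does not bear on which genes were called.

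The members and lists were chosen with earlier results of these data known. Every member is named, and of each list around the pathway up to 3 genes with the smallest p. TYMS was added after its values were seen. Promoter sequences are those of RefSeq, and protein sequences were not compared here. The number of arrays limits the precision. Figures were drawn in matplotlib 3.10.9 (Python 3.11.15).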

Additional observations from a re-analysis of the deposited data

How the results depend on the processing

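PSAT1, MTHFD2, MTHFD1L, SHMT2 and PSPH had lower treated means also after centring and after quantile normalization. The other alternatives could not turn their direction, since both treated arrays lie below both untreated ones and the block, filters and prior leave the fold change as it is. The number of enzymes past the adjusted threshold was 0 in the main setting, with no replicate block, after centring, after quantile normalization, with the filter at the 25th percentile and without each array, and 2 with the filter at background and with the trended robust prior. Over all probe sets the count was 7 with the block, 0 with no replicate block, 0 after centring and 0 after quantile normalization. It was 49 with the filter at background and 69 with the trended prior. At an unadjusted p under 0.05 in limma, 1061 probe sets passed with the block, 968 with no block, 946 after centring and 975 after quantile normalization. With no change in any gene, a share of 0.05 of the 21448 tested probe sets would be expected to pass, which is more than each of these 4 counts. The labels do not say whether equal replicate numbers mean a shared day or batch, and deviations from the group means correlated at -0.0466 between arrays of equal number, which gives no sign of pairing. Past an unadjusted p under 0.05 and a fold of at least 2 there was 1 lower enzyme in the main setting, PSAT1, where 0.224% of all probe sets passed. At a fold of at least 1.5 there were 2, where 2.04% passed. Without untreated replicate 1 the log2 fold change of MTHFD2 was -1.15. The difference between all 4 mitochondrial and the 2 measured cytosolic enzymes, genes at background included, moved with the arrays. It ran from -0.86 without MCP-1-treated replicate 2 to -0.45 without MCP-1-treated replicate 1. Over the 4 combinations of 1 treated and 1 untreated array it ran from -0.97 to -0.34. MTHFD1 changed sign without MCP-1-treated replicate 1 (-0.057, up to 0.24 over the arrays left out) and in replicate pair 2 alone (-0.086), and ALDH1L2, at background, without untreated replicate 2 (0.13) and without MCP-1-treated replicate 1 (0.017), and was as low as -0.38 over the arrays left out. The causes were not tested. Averaging the probe sets of a member was not run, since each measured member has 1.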
